A study of Mus musculus with 24 samples.

Results

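The complement genes C3, C4b, C1qa, C1qb, C1qc, C1s1, Cfb, Cfi and C3ar1 were followed through 24 whole-kidney RNA-seq libraries, 1 library per mouse. These 9 genes were taken by symbol from the 54532 genes of the count table. The rule names symbols and no measured value, but the members were chosen with earlier results of these data known. All mice were C57BL/6, 18 days old, and bore the missense RC allele at Pkd1, which encodes polycystin-1. RC/+ mice, labelled control, carried the RC allele beside an intact Pkd1 allele without Cre. RC/- mice, labelled cystic, had lost the other allele through Ksp-Cre, a recombinase driven by the promoter of a cadherin of the renal tubule epithelium, so that Cre and the cystic genotype cannot be told apart. In the D18 line (founder 3) and the D53 line (founder 2) the miR-17 binding motif had been removed from the 3′ UTR of the RC allele by genome editing, and each line descends from 1 founder. There were 3 noncystic mice (RC/+) and 5 cystic mice (RC/-) for the unedited allele and for each of the D18 and D53 lines.

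Complement is a cascade of plasma proteins that marks surfaces for removal and draws in leukocytes. C1q, built from the products of C1qa, C1qb and C1qc, recognises bound antibody and dying cells and, through the protease encoded by C1s1, leads to cleavage of C4 and then of C3. Factor B (Cfb) forms the C3-cleaving enzyme of the alternative pathway, factor I (Cfi) is the protease that inactivates C3b and C4b, and C3ar1 encodes the receptor for the C3a fragment. The liver makes most of the circulating components, macrophages are the usual source of C1q, and kidney tubule cells can make C3 and other components locally.

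Total counts were 20.4 to 30.8 M per library. Libraries 20 to 27, which comprised 3 of the RC/- D18 and all of the RC/- D53 libraries, stood apart by 6 skeletal muscle markers, which summed to 147 to 194 CPM there (CPM, counts per 1000000 counts of the library total) and to 5.27 to 9.36 CPM in the other 16 libraries. The set varies within RC/- D18, where mice 18 and 19 lie outside it, but not within RC/- D53, so a fit with it as a covariate rests on those 5 RC/- D18 mice. Tubule markers were present in every library. In RC/- against RC/+ kidneys all 9 proximal tubule markers were lower and 6 of 7 collecting duct markers were higher, each at an adjusted p below 0.05. Of all genes tested 12.2% were lower and 25.5% higher at that threshold. In a whole organ, fewer cells of a type and less RNA per cell cannot be told apart.

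The members lie on 4 chromosomes. On GRCm38, C3 occupies chr17:57203970-57228136, C4b chr17:34728380-34743882, C1s1 chr6:124530345-124542359, C3ar1 chr6:122847138-122856161 and Cfi chr3:129835884-129875332. C1qb (chr4:136880129-136886187), C1qc (chr4:136889804-136893065) and C1qa (chr4:136895917-136898803) are neighbours. Cfb, at chr17:34856374-34862518, is the main exception: 79.5% of its 2825 exon bases also belong to Gm20547. This is an annotated read-through of C2 and Cfb on the same strand, which had 0 counts in all 24 libraries. STAR assigns a read pair only where it overlaps 1 gene, so the counts listed for Cfb can come only from the remaining 579 bases, 467 of them in the longest form of its first exon (chr17:34862052-34862518). Values of Cfb are therefore those of these 579 bases, and the level of its whole mRNA was not measured. C1s1 shares 18.4% of its 3129 exon bases with Gm16567, a gene on the opposite strand that also had 0 counts. Reads of C1s1 on those bases are missing if strand was ignored in counting, which is not known.

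Promoters were listed for 5 of the 9 members (C1qb, C1qc, C1s1, C3 and C3ar1; RefSeq, GRCm38.p6), as 250 bases before to 50 after the start site. They were searched on both strands for 5 motifs tied to inflammatory or myeloid transcription: STAT (TTCNNNGAA), ISRE (GAAANNGAA), NF-kB (GGGNNTTTC), C/EBP (TTGCNNAA) and PU.1 (GAGGAAGT). Windows of 30 bases around all 4 matches found are shown, and a role of these letters in the changes was not tested. Each is written along the gene, with the match in capitals:
C3 (C/EBP, chr17:57228163-57228192, - strand, match from position -45): aggaaactatgTTGCGAAAttttgggcagt
C3ar1 (NF-kB, chr6:122856151-122856180, - strand, match from position -13): gtgactcatgGAAAGGCCCttcctgtgcag
C1qc (PU.1, chr4:136893091-136893120, - strand, match from position -195): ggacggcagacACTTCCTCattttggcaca
C1s1 (C/EBP, chr6:124542580-124542609, - strand, match from position -242): agagagaaTTAGGCAAtctcaaaattcccc
Of all 32851 promoters listed, 10.8% held the C/EBP letters, 8.56% ISRE, 8.3% STAT, 4.36% NF-kB and 3.2% PU.1. C3 and C1s1 held the C/EBP letters, C1qb held none of the 5 motifs, and a match shows only that the letters are present.

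Cystic RC/- kidneys were compared with RC/+ kidneys to ask how complement expression differs in the disease. Of the 9 members, 8 rose and Cfb fell, so that all passed the test. Of all 22570 genes tested 37.6% passed, 25.5% higher and 12.2% lower. Over the members the log2 fold changes had a median of 1.57, against 0.14 over all genes tested. With TMM scaling the median over all genes was 0.01 and 49.7% of the passing genes were higher, against 67.7% with the total counts used here, and the 9 members kept their directions, C3 at 3.95 and Cfb at -1.63. No member's RC/- libraries overlapped its RC/+ libraries, a separation seen in 37.6% of all genes.

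C3, the central component of all pathways, changed most. It was at 10.2, 11.7 and 11.2 CPM in the RC/+ mice and at 91.8, 108, 263, 258 and 356 CPM in the RC/- mice 13 to 17. Mice 13 and 14 formed the lower end of the cystic group, and even they were far above every RC/+ mouse. The group means were 11.01 ± 0.772 CPM (SD, n = 3) and 215 ± 113 CPM (SD, n = 5). The log2 fold change was 4.09 ± 0.31 (SE), a 17-fold higher level (adjusted p = 5.95e-10).

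C4b, the C4 gene that feeds the classical and lectin pathways, was at 2.90, 3.58 and 2.49 CPM in RC/+ and at 19.97, 12.8, 14.7, 50.7 and 17.2 CPM in RC/- mice. Mouse 16 held the highest value, and the other 4 cystic mice were within 12.8 to 19.97 CPM. The log2 fold change was 2.73 ± 0.34 (SE), 6.64-fold (adjusted p = 7.72e-07). C4a, whose transcript is 96.0% identical to that of C4b over 5378 aligned bases, was low and did not pass the test. Its values were 0.98, 0.796 and 1.04 CPM in RC/+ and 1.15, 1.01, 0.874, 5.71 and 0.708 CPM in RC/- mice, so that mouse 16 was also highest there. How reads were divided between these near copies is uncertain.

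The 3 C1q chains rose together and almost equally. C1qa was at 38.9, 39.1 and 43.3 CPM in RC/+ and at 98.7, 85.5, 127, 176 and 134 CPM in RC/-, which gave a log2 fold change of 1.57 ± 0.15 (SE). C1qb and C1qc gave 1.62 ± 0.15 and 1.63 ± 0.15 (SE), with adjusted p of 1.54e-08 and 1.47e-08 against 1.41e-08 for C1qa. Mouse 16 was highest and mouse 14 lowest of the cystic mice for all 3 chains. The ratio of C1qa to C1qc counts stayed between 1.16 and 1.36 over the 24 libraries, with a coefficient of variation of 4.57%, while the level of C1qa itself differed 2.06-fold among the RC/- mice alone.

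C1s1, the protease of the C1 complex, rose less. It was at 35.9, 26.4 and 37.8 CPM in RC/+ and at 45.3, 38.5, 49.0, 58.3 and 58.8 CPM in RC/- mice, and the lowest cystic mouse was just above the highest RC/+ mouse. The log2 fold change was 0.58 ± 0.15 (SE), 1.5-fold (adjusted p = 0.00277). Its near copy C1s2 (96.0% identical over 2644 bases) was at 0.355 to 1.26 CPM over all libraries and did not pass the test.

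Cfi, the inhibitory protease, was at 9.27, 8.71 and 8.03 CPM in RC/+ and at 23.4, 29.5, 21.5, 19.3 and 28.0 CPM in RC/- mice. All 5 cystic mice were clearly above the RC/+ mice, and the log2 fold change was 1.47 ± 0.16 (SE), 2.76-fold (adjusted p = 8e-08). The mice ranked differently from their order in C1q: mouse 16 was the lowest of the cystic mice for Cfi and mouse 14 the highest. The pair of male RC/- mice, 14 and 17, were above the 3 females for Cfi, while for the other 8 members the sexes overlapped in RC/-. The receptor gene C3ar1 was at 4.17, 2.34 and 5.62 CPM in RC/+ and at 8.21, 7.01, 13.3, 16.2 and 13.4 CPM in RC/-, with a log2 difference of 1.52 ± 0.26 (SE; adjusted p = 5.06e-05). Like C1q it was highest in mouse 16 and lowest in mouse 14.

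The counts listed for Cfb went the other way. They were at 9.76, 9.47 and 10.1 CPM in RC/+ and at 3.89, 3.72, 4.05, 2.22 and 3.63 CPM in RC/- mice, without overlap. The log2 fold change was -1.49 ± 0.28 (SE), 0.357 times the RC/+ level (adjusted p = 0.000152). Mouse 16, highest for C4b and C1q, was lowest for Cfb. C2, the classical-pathway homologue beside it, shares 42.8% of its exon bases with the same read-through gene and was at 5.89 ± 0.804 CPM in RC/+ (SD, n = 3) and 5.15 ± 0.832 CPM in RC/- (SD, n = 5), which did not pass the test.

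**Figure D1:**
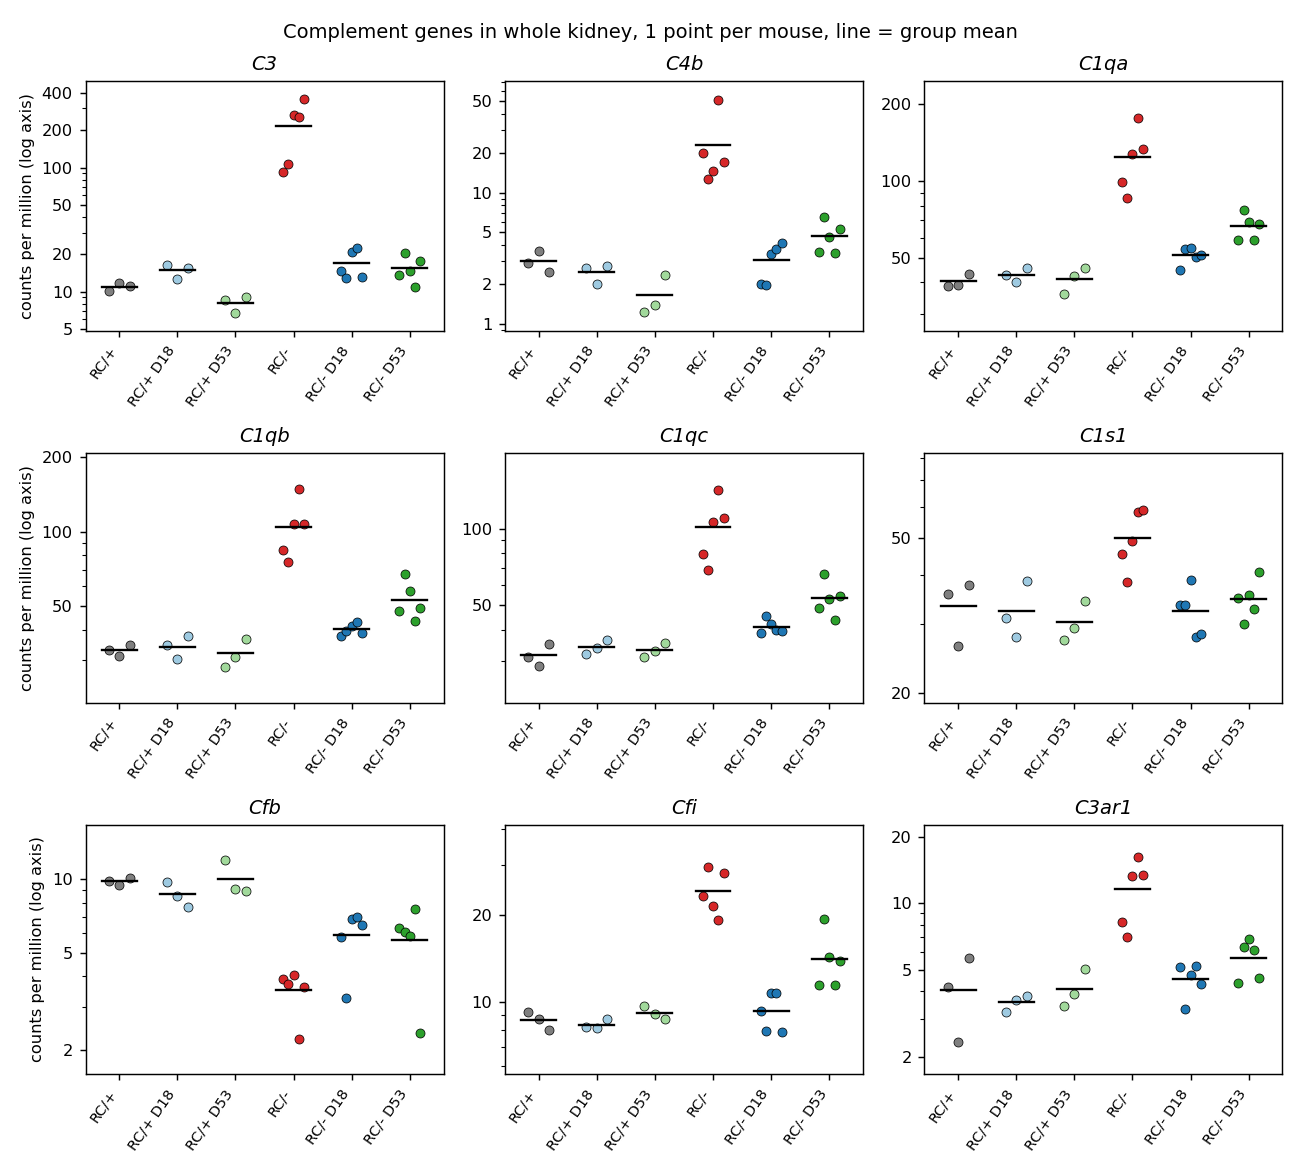
CPM of each member on log axes, with 1 point per mouse in the 6 groups and a line at the group mean. In every panel except that of Cfb the RC/- mice are above the RC/+ mice, most widely for C3 (91.8 to 356 against 10.2 to 11.7 CPM), and for Cfb they are below (2.22 to 4.05 against 9.47 to 10.1 CPM).

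Per kilobase of annotated exon, which allows genes to be compared, the order of levels also shifted. In RC/+ kidneys the means were 38.9 CPM per kb for C1qa, 30.3 for C1qb, 16.4 for C1qc, 10.7 for C1s1, 3.91 for Cfi, 2.14 for C3, 0.939 for C3ar1 and 0.525 for C4b. In RC/- kidneys C1qa was still first, at 119.5 ± 33.8 CPM per kb (SD, n = 5), and C1qb second, at 96.1 ± 26.2, with overlapping ranges. C3 moved from below C1s1 and Cfi to 41.9 ± 21.9 CPM per kb (SD, n = 5), and its range of 17.9 to 69.3 overlapped that of C1qc, 35.8 to 73.8. C4b passed C3ar1 in the mean, at 4.05 ± 2.75 against 2.70 ± 0.898 CPM per kb (SD, n = 5 each), and the ranges overlapped. Cfb is left out of this order because its counts cover only part of its exons. The values of C1s1 are too low if reads on the 18.4% of its exon bases shared with Gm16567 were not counted.

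RC/- D18 kidneys were compared with RC/- kidneys to ask how the members differ when the RC allele lacks the miR-17 motif. Of the 9 members, 8 fell and Cfb rose, and all passed, where 41.2% of all genes tested passed, 14.3% higher and 26.9% lower. With TMM scaling the share of passing genes that were higher went from 34.8% to 50.2%, and all 9 members still passed. C3 was at 14.7, 13.03, 21.1, 22.6 and 13.2 CPM in the RC/- D18 mice 18 to 22, with every mouse below the lowest RC/- mouse. Its log2 fold change was -3.51 ± 0.27 (SE), 0.0876 times the RC/- level (adjusted p = 7.23e-10). C4b was at 2.02, 1.97, 3.41, 3.72 and 4.12 CPM and fell by 2.75 on the log2 scale (adjusted p = 7.3e-08). C1qa was at 45.0, 54.0, 54.7, 50.1 and 51.4 CPM, also without overlap with RC/-, and its log2 fold change was -1.24 ± 0.13 (SE). C1qb and C1qc fell by 1.34 and 1.26, Cfi by 1.37, C3ar1 by 1.29 and C1s1 by 0.61 on the log2 scale. The spread among the edited cystic mice was small for the C1q chains: C1qb varied 1.13-fold between the highest and lowest RC/- D18 mouse and 1.97-fold among RC/- mice. Cfb was at 5.78, 3.26, 6.83, 7.01 and 6.50 CPM, and mouse 19 lay inside the RC/- range, so the log2 fold change of 0.71 ± 0.24 (SE; adjusted p = 0.0201) was the least certain.

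With libraries 20 to 27 left out, which keeps mice 18 and 19 of this group, 8 of the 9 members still passed against RC/-. The exception was Cfb, at 0.33 (adjusted p = 0.322). Values of C4b and Cfb separated the pair from the other 3 mice (C4b 1.97 to 2.02 against 3.41 to 4.12 CPM, and Cfb 3.26 to 5.78 against 6.50 to 7.01 CPM), and the part of the muscle RNA in that was not tested. Cfb also missed the threshold without RC/- mouse 16 (0.56, adjusted p = 0.0718) and without RC/- D18 mouse 21 (0.64, adjusted p = 0.0553).

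RC/- D53 kidneys were compared with RC/- kidneys in the same way, with the same RC/- libraries. Of the members 8 fell, where 30.2% of all genes passed, 11.3% higher and 18.9% lower. With TMM scaling the share of passing genes that were higher went from 37.4% to 53.3%, and all 9 members passed, with Cfb at 0.69 (adjusted p = 0.0387). C3 was at 13.6, 20.6, 14.7, 11.01 and 17.6 CPM in the RC/- D53 mice 23 to 27, far below RC/-, with a log2 difference of -3.63 ± 0.27 (SE; adjusted p = 2.42e-09). C4b was at 3.50, 6.55, 4.58, 3.49 and 5.30 CPM and fell by 2.12. C1qa was at 58.9, 77.2, 68.7, 58.8 and 68.0 CPM, all below the lowest RC/- mouse at 85.5 CPM, with a log2 difference of -0.87 ± 0.13 (SE; adjusted p = 1.56e-05). C1qb fell by 0.96, C1qc by 0.90, Cfi by 0.79, C3ar1 by 0.98 and C1s1 by 0.51 on the log2 scale. Mouse 24 was the highest of this group for C3, C4b, the C1q chains and Cfi. Cfb was at 6.29, 6.07, 5.83, 7.52 and 2.35 CPM, with mouse 27 at the low end of the RC/- range, and its log2 fold change of 0.60 ± 0.24 (SE) had an adjusted p of 0.0633. Without mouse 27 it was 0.88 (adjusted p = 0.00104). With libraries 20 to 27 as a covariate 6 members passed, and C1s1 (-0.41, adjusted p = 0.302) and C3ar1 (-1.18, adjusted p = 0.0704) did not.

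**Figure D2:**
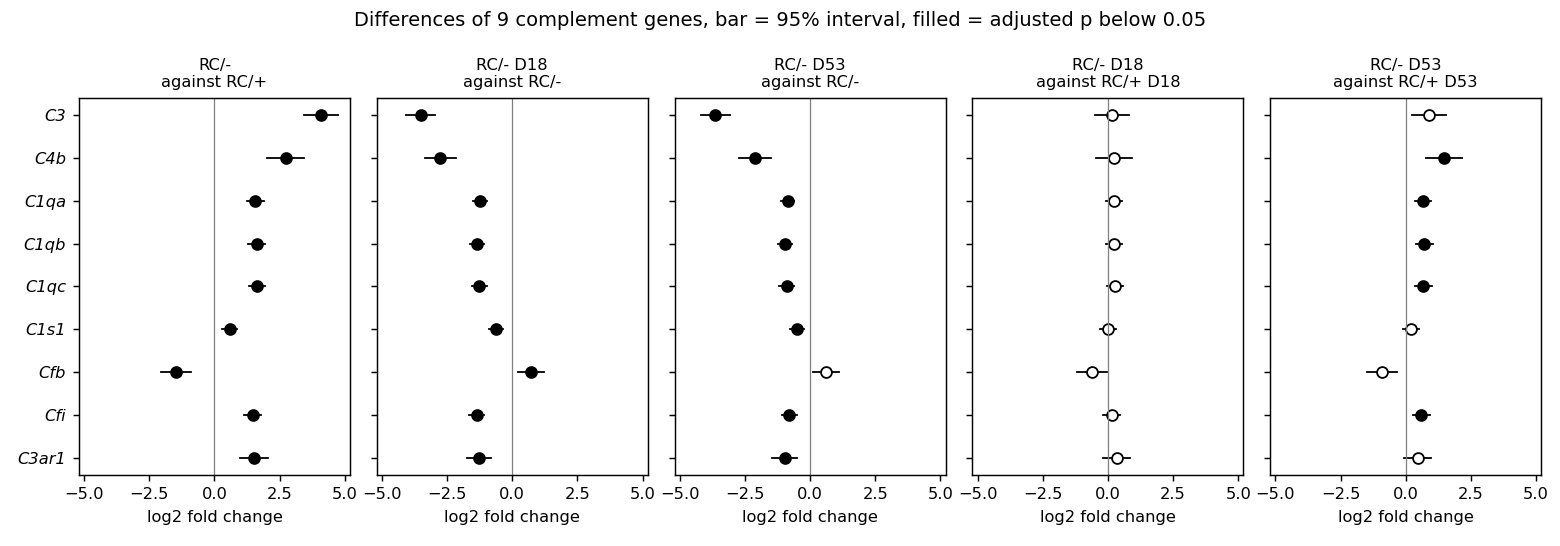
Log2 fold change of each member (x axis) in 5 comparisons, with bars for the 95% confidence interval and filled points where the adjusted p was below 0.05. C3 is at 4.09 in RC/- against RC/+ and at -3.51 and -3.63 in the edited against the unedited cystic kidneys, while in the D18 line all 9 points are open.

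Within each edited line, the cystic mice were compared with their own noncystic mice to ask what difference remained. In the D18 line 0 of the 9 members passed by limma, 1 had an unadjusted p below 0.05 (Cfb), and 0 passed by edgeR or DESeq2, where 0.266% of all genes passed. C3 was at 16.5, 12.7 and 15.4 CPM in RC/+ D18 mice and overlapped the RC/- D18 mice. Its log2 fold change was 0.15 with a 95% interval of -0.50 to 0.80. For C1qa the difference was 0.25, with an interval of -0.06 to 0.56, and for C4b 0.24, with an interval of -0.46 to 0.94. These 3 intervals end below the fold changes of the unedited line. For C1qb (30.3 to 37.5 against 37.8 to 42.8 CPM) and C1qc (31.9 to 36.5 against 38.8 to 45.4 CPM) the RC/- D18 mice were above all RC/+ D18 mice. For Cfb they were below (3.26 to 7.01 against 7.68 to 9.75 CPM). The Cfb difference was -0.59, with an interval of -1.17 to -0.02 (adjusted p = 0.542). The share of all genes separated in this way within the D18 line was not computed.

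In the D53 line 5 of the 9 members passed, where 2.6% of all genes passed. C4b was at 1.24, 1.38 and 2.35 CPM in RC/+ D53 mice, below every RC/- D53 mouse, and the log2 fold change was 1.47 ± 0.34 (SE; adjusted p = 0.0153). C1qa was at 36.2, 42.5 and 45.5 CPM in RC/+ D53 mice, again below every RC/- D53 mouse, with a difference of 0.68 ± 0.15 (SE; adjusted p = 0.0103). C1qb (0.71), C1qc (0.67) and Cfi (0.59) passed as well. C3 did not: it was at 8.52, 6.79 and 9.03 CPM in RC/+ D53 mice, below each of the RC/- D53 mice, and its difference of 0.91 had an interval of 0.26 to 1.55 and an adjusted p of 0.15. Cfb did not pass either, and it was lower in the cystic mice (2.35 to 7.52 against 8.93 to 11.9 CPM, without overlap). The Cfb difference was -0.90, with an interval of -1.48 to -0.33 (adjusted p = 0.0919). In a fit of only these 2 groups C3 passed (adjusted p = 0.00946) and Cfi did not (adjusted p = 0.0549). Cfi also missed the threshold with TMM (adjusted p = 0.0545). By edgeR both Cfi and C4b missed it (adjusted p = 0.0616 and 0.0627). Without any one of mice 10, 11, 12, 24, 25 and 27 Cfi missed it as well (adjusted p = 0.0657 to 0.174). The count of 5 members rests on few libraries. It was 0 without RC/+ D53 mouse 10, 1 without RC/+ D53 mouse 11, 3 without RC/- D53 mouse 24, and 0 with libraries 20 to 27 as a covariate.

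Between the D53 and D18 cystic kidneys 0 of the 9 members passed by limma, where 0.266% of all genes passed. An unadjusted p below 0.05 was seen for 5 members, 0 passed by edgeR and 1, Cfi, by DESeq2. Cfi was at 9.29, 7.91, 10.8, 10.8 and 7.85 CPM in RC/- D18 and at 11.5, 19.4, 14.4, 11.5 and 13.9 CPM in RC/- D53 mice. The groups do not overlap, and the log2 difference was 0.58 with an interval of 0.30 to 0.86 (adjusted p = 0.0652). For C3 the difference was -0.12, with an interval of -0.68 to 0.44.

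The motif deletion was also tested in noncystic kidneys. Against RC/+, 0 members passed in RC/+ D18 (0 with an unadjusted p below 0.05) and 0 in RC/+ D53 (1, C4b), where 0.00443% and 0% of all genes passed, and edgeR and DESeq2 also gave 0 members. C3 was 0.43 higher in RC/+ D18, with an interval of -0.30 to 1.15, and its difference in RC/+ D53 was -0.45, with an interval of -1.17 to 0.28. C4b in RC/+ D53 differed by -0.86, with an interval of -1.64 to -0.08.

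Whether the cystic difference itself was smaller in an edited line was tested by interaction. In the D18 line 7 of 9 members passed, where 17.1% of all genes passed, and in the D53 line 5 of 9, where 11.3% passed. The cystic log2 difference of C3 was smaller by 3.94 in the D18 line and by 3.19 in the D53 line. C1s1 and Cfb passed in neither line (adjusted p = 0.0562 and 0.128 in the D18 line). Leaving out single libraries gave 6 to 8 members in the D18 line and 5 to 7 in the D53 line. With libraries 20 to 27 as a covariate the D53 number was 1, for C3. Without RC/+ mouse 5 the value of C3ar1 in the D18 line went from -1.19 to -0.85 (adjusted p = 0.121), and it also missed the threshold without RC/+ D18 mouse 8 or 9 (adjusted p = 0.0546 and 0.0669), by edgeR (0.0507) and with libraries 20 to 27 left out (0.0858). C1s1 passed in the D18 line without any one of mice 6, 8, 14 and 20 (adjusted p = 0.0194 to 0.0425), and Cfb without mouse 19 (1.09, adjusted p = 0.0394). With all libraries, C1s1 passed there at a mean log2 CPM limit of 0 (adjusted p = 0.0447) and Cfb by DESeq2 (1.02, adjusted p = 0.0304). C3ar1 missed the threshold there in a fit of only the groups compared (adjusted p = 0.0503). In the D53 interaction C3ar1 passed at that limit of 0 (adjusted p = 0.0481). In the D53 line C3ar1 passed without mouse 6, 13 or 14 (adjusted p = 0.0204 to 0.0381) and C4b without mouse 14 (adjusted p = 0.0493).

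Transcripts of macrophage markers moved in the same direction as most members, and no cells were counted. Of 12 macrophage markers that are not complement genes, 11 rose in RC/- against RC/+ and 1 fell, beside 25.5% and 12.2% of all genes. The markers summed to 329 to 363 CPM in RC/+, 572 to 1073 CPM in RC/-, 403 to 438 CPM in RC/- D18 and 406 to 643 CPM in RC/- D53, and none was at 0 in any group. Their mean log2 level rose by 1.3 ± 0.362 (SD, n = 5) in RC/- over the RC/+ mean. Relative to that mean, C1qa was 0.279 ± 0.0719 higher, C1qb 0.328 ± 0.0987 and C1qc 0.339 ± 0.0751 (log2, SD, n = 5), and C3ar1 0.225 ± 0.178. C3 was 2.80 ± 0.591 and C4b 1.44 ± 0.580 higher relative to the same markers, whereas C1s1 was at -0.715 ± 0.134. Cfi was at 0.17 ± 0.554 and the Cfb counts at -2.78 ± 0.645. The part of macrophage number in each member's change was not tested.

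Of the other lists, injured tubule, fibroblast and collecting duct markers rose as macrophage markers did, and the rest did not. Their median log2 fold changes in RC/- against RC/+ were 2.18, 1.10 and 1.58, beside 1.515 for the macrophage markers. In both edited cystic groups against RC/- the medians of these lists were negative. Of all genes tested 25.5% rose and 12.2% fell in RC/- against RC/+, and the counts of markers here stand beside those shares. Of 8 hepatocyte genes, 2 rose and 1 fell, near those shares. Their sum was 197 to 225 CPM in RC/+ and 99.1 to 231 CPM in RC/-. Of 6 injured tubule markers, 4 rose, and their sum went from 68.4 to 119 CPM in RC/+ to 346 to 690 CPM in RC/-. Of 8 fibroblast markers 5 rose, and their sums did not overlap (1502 to 2106 against 3127 to 5069 CPM). Neutrophil markers stayed at or below 7.0 CPM in sum in every library, and 0 of the 3 tested passed. Of 7 T and B cell markers 0 rose and 1 fell, of 5 endothelial markers 0 rose and 3 fell, and of the 6 skeletal muscle markers 0 passed.

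**Figure D3:**
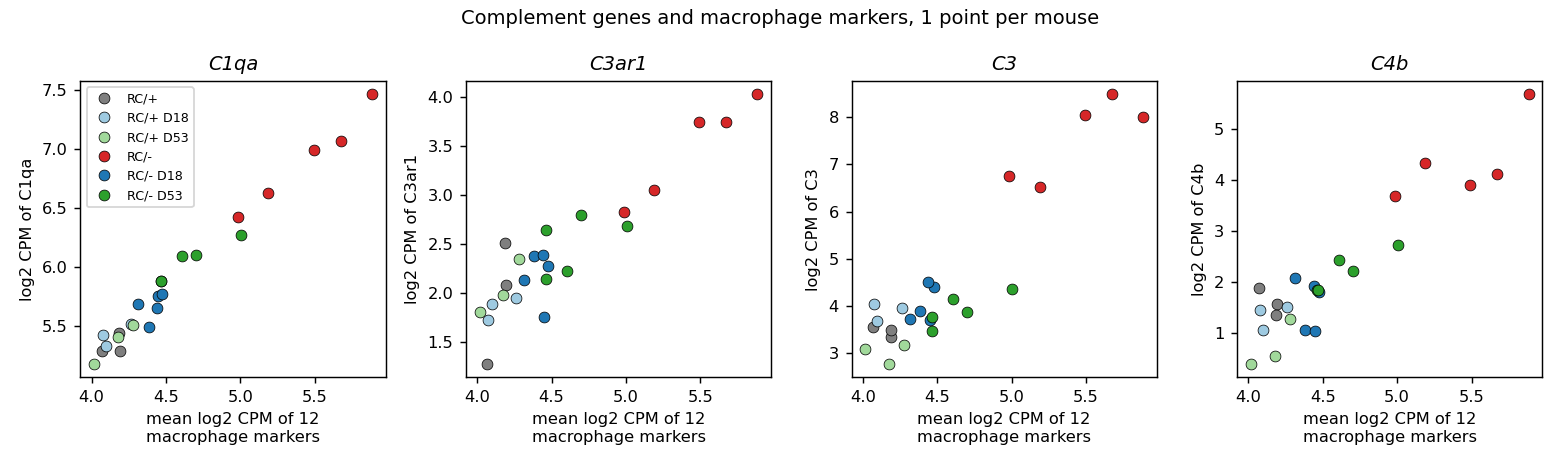
Log2 CPM of C1qa, C3ar1, C3 and C4b (y axes) against the mean log2 CPM of 12 macrophage markers (x axis), with 1 point per mouse and groups by colour. C1qa lies close to 1 line across all groups, whereas C3 in the RC/- mice stands above the other groups, by 2.80 relative to the markers in the mean.

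Across the 24 libraries, which include the differences between groups, the genes most like C1qa in log2 CPM were Laptm5, Fcrls, Fcgr3, Cd68 and Tyrobp, with Pearson's r of 0.979 to 0.981. These are genes of macrophages and other leukocytes. Among the 5 genes most like C3 were Clu, Cd14, Mvp and Aoc1, with r of 0.965 to 0.971. Clu, which encodes clusterin, an inhibitor of the terminal complement complex, went from 235 CPM in RC/+ to 2171 CPM in RC/- in the mean. The genes least like C3 were Amacr, B3galnt1 and Adk, at -0.964 to -0.962, and those least like C1qa were Pbld1, Fads3 and Ace, at -0.968 to -0.962. Within groups, the deviations from the group means correlated at 0.915 to 0.953 between pairs of C1q chains, at 0.705 between C3 and C1qa, and at -0.136 between Cfi and C1qa. These correlations share libraries and depth and are descriptions only.

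The rest of the cascade was read from a list of 45 further complement genes, of which 37 passed the limit on low values. In RC/- against RC/+ kidneys 16 rose, 3 fell and 18 did not pass, beside the 37.6% of all genes that passed, and their median log2 fold change was 0.45, also with Vsig4 at its bound given below. In the classical branch 1 of 4 tested genes rose, in the lectin branch 2 of 6, and in the terminal pathway 2 of 5. Receptors changed most often, with 6 of 7 higher and 1 lower, and of 13 regulators 4 rose and 2 fell. Vsig4, counted among the 16 genes and the 6 receptors that rose, met the limit on low values only through its RC/- counts.

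Among recognition and amplification genes, the ficolin gene Fcna went from 0.250 ± 0.0406 CPM (SD, n = 3) to 2.03 ± 0.288 CPM (SD, n = 5). Its fitted log2 difference was 2.67 ± 0.43 (SE). With 5 to 7 counts per RC/+ library, the prior count of 2 makes that difference smaller than the ratio of the means. Masp1, a protease of the lectin pathway, was at 11.4, 8.76 and 14.2 CPM in RC/+ and at 35.8, 24.2, 17.7, 29.6 and 27.1 CPM in RC/-. Cfp, or properdin, the stabiliser of the alternative-pathway enzyme, rose by 1.46 ± 0.17 (log2, SE), from 6.59 to 18.4 CPM. Cfd, the factor D gene that adipocytes express strongly, was spread from 0.874 to 210 CPM among the RC/- mice and did not pass.

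Terminal components were low. C7 was at 1.59, 1.73 and 2.17 CPM in RC/+ and at 5.09, 5.32, 6.75, 5.25 and 4.73 CPM in RC/-, with a log2 fold change of 1.53 ± 0.26 (SE). C6 had 2 counts in all RC/+ libraries together and 36 in all RC/- libraries, a ratio of 10.9 with a 95% exact interval of 2.81 to 93.6 for counting error. It passed by limma (adjusted p = 0.0211), and its adjusted p was 0.0553 by edgeR and 0.0563 by DESeq2. It also missed the threshold without RC/+ mouse 5 or 6 or RC/- mouse 15 or 16 (adjusted p = 0.0523 to 0.0853).

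Of the receptors, C5ar1, the receptor for C5a, was at 1.76, 1.55 and 1.28 CPM in RC/+ and at 5.003, 4.81, 5.92, 6.34 and 5.71 CPM in RC/-, a log2 difference of 1.81 ± 0.18 (SE). Vsig4, a receptor for C3b on tissue macrophages, had 0 counts in all RC/+ libraries and 6 to 24 counts in each RC/- library. That is at least 12.3-fold higher against a floor of 3 counts over the RC/+ group. Vsig4 met the limit on low values only through its RC/- counts, so its passing the test is no separate support. Itgam, a chain of complement receptor 3, rose by 1.45 ± 0.22 (log2, SE), and 68.7% of its exon bases also belong to the annotated gene Gm49368, which had 0 counts. Cr2, the receptor of B cells and follicular dendritic cells, fell by 0.96 (adjusted p = 0.0216), and missed the threshold without RC/+ mouse 4 or 5 or RC/- mouse 15 (adjusted p = 0.0645 to 0.0846).

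Of the regulators, Clu was at 225, 247 and 232 CPM in RC/+ and at 1205, 1612, 2702, 2268 and 3070 CPM in RC/-, which differed by 3.13 ± 0.19 on the log2 scale (SE; adjusted p = 1.79e-11). C4bp, which binds C4b, rose by 1.39. Cd59a, a membrane inhibitor of the terminal complex, fell by 0.23, with an adjusted p of 0.0541 without RC/+ mouse 5.

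In RC/- D18 against RC/- kidneys 20 of the 37 passed, 4 higher and 16 lower, beside 41.2% of all genes. With libraries 20 to 27 left out the number was 13. In RC/- D53 against RC/- kidneys 14 passed, 2 higher and 12 lower, beside 30.2%. Clu, named because it was high in these same RC/- libraries, fell by 2.71 in RC/- D18 and by 2.37 in RC/- D53. Its levels there were 315 ± 30.8 and 397 ± 34.4 CPM (SD, n = 5 each). Vsig4 had at most 1 count per library in RC/- D18 and at most 2 in RC/- D53. Within the D18 line 0 of 37 passed by limma (4 with an unadjusted p below 0.05) and 0 by edgeR and DESeq2, and within the D53 line 2 passed, C5ar1 at 0.77 and Clu at 0.78 (adjusted p = 0.0153 and 0.0242). That number was 0 without RC/+ D53 mouse 10 or 11 and 1 without RC/- D53 mouse 24 or 25.

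**Figure D4:**
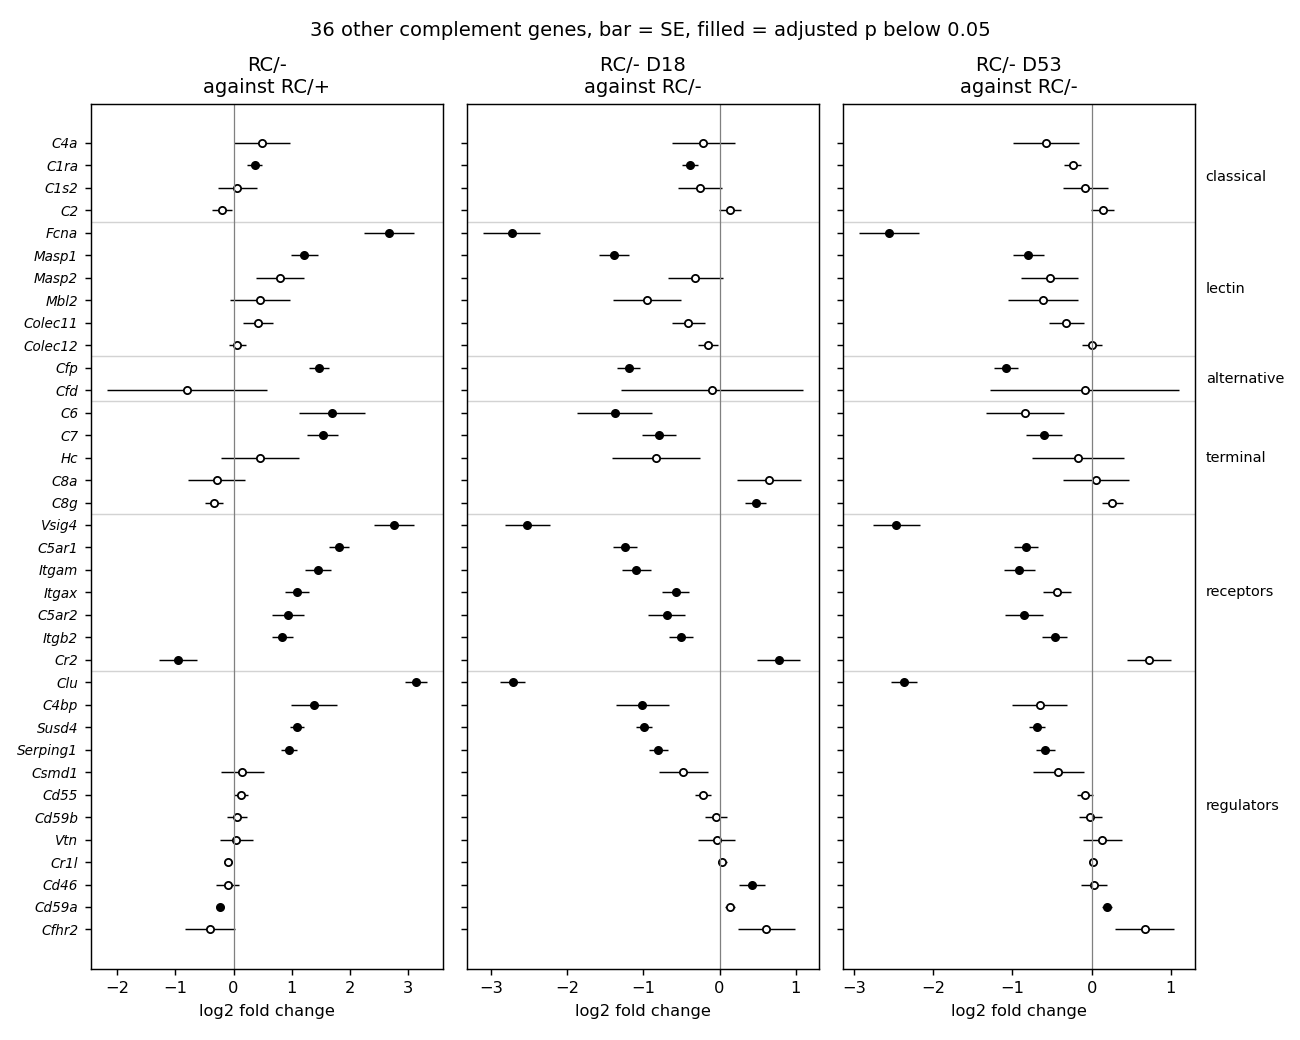
Log2 fold change (x axis) of 36 of the 37 tested genes of the wider cascade in 3 comparisons, ordered by branch, with bars for the SE and filled points where the adjusted p was below 0.05. The 16 genes higher in RC/-, led by Clu, Vsig4 and Fcna, lie to the left of 0 in both edited cystic groups. Those groups are compared with the same RC/- libraries in which the 16 were picked as high, which favours that side in advance. Vsig4 met the limit on low values only through RC/-. The points of Vsig4, C6 and Fcna depend on the prior count because their RC/+ counts are 0 or low.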

How the data were processed

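The authors trimmed paired reads of total kidney RNA with Trim Galore 0.6.3 and aligned them to GRCm38 with STAR 2.5.3a. The deposited table holds raw read counts per Ensembl gene, without normalization, for 54532 genes in 24 libraries. Which strand column was kept is not given in the sources used here. Rows without a symbol (343) took at most 0.0261% of a library, and 0 columns were left unused. Exons and coordinates came from GENCODE M21 on GRCm38, a later release than the counted one.

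Counts were scaled to log2 CPM by library totals (prior count 2), and 22570 genes with a mean of at least -3 were tested with limma-trend (limma 3.58.1, edgeR 4.0.16, R 4.3.3). One model with 6 group means was fitted to all 24 libraries without covariates, with the scaling, expression limit and tool that the study's methods name. Tests were two-sided and adjusted by Benjamini-Hochberg over all genes, with a threshold of 0.05. The exact interval and the floor cover counting error only. Alternatives were edgeR quasi-likelihood, DESeq2 1.42.0, TMM, other filters and prior counts, covariates and left-out libraries. Leaving out libraries 20 to 27 was chosen after seeing the data. The test was checked on simulated counts.

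The members and lists were chosen with earlier results of these data known. All members are named, and of the other complement genes those past the threshold in RC/- against RC/+, at most 10 in each direction, apart from a gene not reported here. C4a, C1s2, C2 and Cfd were added for overlap, likeness of sequence or spread, the last 2 after their values were seen. Sex, read from Xist and Ddx3y, gave 14 female and 10 male libraries. The 39 pairs of libraries within groups differed by more than sampling noise (chi-square per degree of freedom 8.45 to 48.2), so each was counted as 1 replicate.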

Additional observations from a re-analysis of the deposited data

Results flagged for a closer look

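Cfb had 1 library far below the other 4 in each cystic group: mouse 16 in RC/- at 2.22 CPM, mouse 19 in RC/- D18 at 3.26 CPM and mouse 27 in RC/- D53 at 2.35 CPM. These were 3 of 27 groups of 5 examined for a stray library, and chance gives about 1 in 20. All 3 values come from the 579 exon bases that Cfb does not share, and their cause was not tested.

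The cystic difference was smaller in the D18 line than in the unedited line by a test of the difference itself for 7 members, with log2 values of -3.94 for C3, -2.49 for C4b, -1.33 for C1qa, -1.39 for C1qb, -1.36 for C1qc, -1.32 for Cfi and -1.19 for C3ar1. In the D53 line this held for 5 members, at -3.19 for C3, -0.896 for C1qa, -0.911 for C1qb, -0.965 for C1qc and -0.874 for Cfi. Both tests share the RC/- and RC/+ libraries.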

How the results depend on the processing

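No paired analysis was possible because the groups share no replicate numbers. In RC/- against RC/+ all 9 members passed under every alternative run. Against RC/-, with single libraries left out, 8 to 9 members passed in RC/- D18 and 8 to 9 in RC/- D53, and of the other complement genes 14 to 20 and 10 to 15. With libraries 20 to 27 as a covariate, members passing fell from 5 to 0 within the D53 line and from 5 to 1 for the D53 interaction (C3), and other genes from 14 to 6 for RC/- D53 against RC/- and from 2 to 0 within the D53 line. For RC/- D53 against RC/- it took the members passing from 8 to 6. That covariate varies only within RC/- D18. With those libraries left out, 13 other genes passed in RC/- D18 against RC/-. In the D53 line edgeR gave 3 members and 1 other gene, DESeq2 6 members (with Cfb) and 4 other genes, and leaving out single libraries 0 to 5 members and 0 to 3 other genes. Between D53 and D18 cystic kidneys DESeq2 gave 1 member.

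Some values that had not passed changed sign and did not pass with the other sign. Within the D18 line C1s1, at 0.002, was -0.037 with TMM, -0.040 with edgeR, -0.039 with DESeq2, -0.0042 with sex as a covariate and -0.10 to 0.13 without single libraries. There C3 was -0.10 and C4b -0.29 with libraries 20 to 27 as a covariate or left out. With that covariate Cfb was -0.032 in RC/- D53 against RC/- and -0.049 in the D53 interaction, and in RC/- D53 against RC/- D18 it was -0.31 to 0.17 without single libraries, the last without mouse 27. The cause was not tested. Low counts limit C6, Vsig4, Fcna and C4a.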
